A study of Mus musculus with 8 samples.

Results

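The regions described here are the 1489 stretches of chromatin inside genes called open in mouse Hepa-1 cells that had been exposed to Cr(VI) at 25 µM for 90 minutes. They were chosen by measured values and by position: each was called by MACS in the FAIRE library of the treated cells against the FAIRE library of their control, its centre lay more than 1000 bp from the transcription start site (TSS) of every RefSeq transcript, and its centre fell in the span of at least 1 RefSeq gene. They were 50.6% of the 2945 peaks in the acute list. The others were 290 peaks within 1000 bp of a TSS and 1166 peaks between genes. Hepa-1 is an established line of mouse hepatoma cells, and all groups used here were grown from it. The chromate was given as a potassium salt. Each FAIRE condition had 1 library, and the peak score is the only deposited value of a peak, so that no peak has a replicate check and the read depth behind it is unknown. RNA was measured in 2 libraries from cells under the same exposure and in 2 control libraries, whose labels do not say to which treatment they belong. A second FAIRE list, from a long-term culture kept at 0.5 µM through 20 passages, was used only for overlap.

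FAIRE (formaldehyde-assisted isolation of regulatory elements) recovers DNA that is not held by crosslinked nucleosomes and therefore escapes into the water layer when crosslinked chromatin is extracted with phenol. Inside genes such open DNA is found mostly at enhancers and at insulator sites, which lie largely in introns. AP-1, a dimer of FOS, JUN and related proteins, binds enhancers and is activated by stress and growth signals. BACH proteins bind a longer form of the same sequence, and CTCF is the zinc finger protein that marks insulators and the borders of chromatin loops.

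Shown here are sequences of some of the peaks that held the AP-1 sequence TGACTCA, in either orientation (TGAGTCA on the other strand). Only peaks in a gene whose RNA changed were picked for printing. The sequences are given 5′ to 3′ on the plus strand of GRCm38 (mm10), with the AP-1 sequence in capitals. The peak in Eml1 was the only one of the 1489 with both the AP-1 and the CTCF sequence, and both are in capitals there. The peak in Oplah, which held the AP-1 sequence at 2 places, is shown last.
Tenm4, intron 6, chr7:96556728-96556869: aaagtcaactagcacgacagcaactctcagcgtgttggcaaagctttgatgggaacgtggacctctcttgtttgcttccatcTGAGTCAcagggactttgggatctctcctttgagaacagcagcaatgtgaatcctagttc
Eml1, intron 3, chr12:108487959-108488044: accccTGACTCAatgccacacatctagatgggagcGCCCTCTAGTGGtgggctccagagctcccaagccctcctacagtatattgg
Sox5, intron 1, chr6:144640645-144640900: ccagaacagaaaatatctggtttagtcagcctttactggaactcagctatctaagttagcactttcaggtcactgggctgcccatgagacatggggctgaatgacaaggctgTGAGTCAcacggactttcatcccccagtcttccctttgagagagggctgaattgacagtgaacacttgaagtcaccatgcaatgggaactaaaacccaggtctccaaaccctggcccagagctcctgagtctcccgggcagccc
Magi1, intron 1, chr6:94100535-94100670: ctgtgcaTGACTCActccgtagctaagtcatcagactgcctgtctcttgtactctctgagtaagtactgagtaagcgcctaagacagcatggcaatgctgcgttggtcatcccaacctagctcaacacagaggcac
Sord, intron 1, chr2:122242765-122242924: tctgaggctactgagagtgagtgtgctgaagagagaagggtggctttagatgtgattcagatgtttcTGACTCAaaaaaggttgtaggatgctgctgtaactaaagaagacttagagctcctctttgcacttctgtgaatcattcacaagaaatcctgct
Gfod1, intron 1, chr13:43286934-43287094: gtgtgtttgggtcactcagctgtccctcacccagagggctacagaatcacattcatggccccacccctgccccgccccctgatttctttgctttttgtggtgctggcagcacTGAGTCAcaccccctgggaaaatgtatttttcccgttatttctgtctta
Oplah, intron 1, chr15:76311733-76311859: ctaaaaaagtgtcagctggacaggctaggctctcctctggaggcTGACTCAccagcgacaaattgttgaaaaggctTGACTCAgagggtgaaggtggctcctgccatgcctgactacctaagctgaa

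Sites of the CTCF consensus are shown from the 6 peaks with the highest scores among those that held it, a choice made after the values were seen. Each site is written on the strand that reads as the consensus, with the 12 bases of the consensus in capitals. Hosts that are numbered loci without a settled name are given by their locus symbol.
Ahi1, intron 6, plus strand, chr10:20966288-20966317: acgcgtcctGCCCTCTGGTGGtcagtgtgt
Mettl7a1, intron 1, minus strand, chr15:100307878-100307907: aggtctggtGCCCTCTAGTGGtaagtccga
Kif16b, intron 12, plus strand, chr2:142813227-142813256: aactgcagtGCCATCTAGTGGtaaaaacca
Gm13398, noncoding exon, plus strand, chr2:27038789-27038818: gtctcatctGCCACCTGGTGGtcaaagata
Vipr1, UTR, plus strand, chr9:121671524-121671553: atctctatcGCCATCTAGTGGgcacttcaa
Gm41980, intron 5, minus strand, chr1:155025978-155026007: tacgccactGCCCTCTAGTGGccacaatga

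The 1489 peaks were short. Their width ran from 49 to 610 bp with a median of 118 bp and quartiles of 97 and 144 bp, 425 of them (28.5%) were narrower than 100 bp, and together they covered 188590 bp. The peaks near a TSS were wider, with a median of 138 bp, and those between genes had a median of 116 bp. The score, which is −log10 of the p-value from MACS multiplied by 10, rises with confidence in the call, and since it chose the peaks it is given here as a description. Its median was 57.1 in a range of 50 to 141, and 536 peaks (36.0%) reached 60. Narrow peaks had the higher scores, with a median of 61.2 below 100 bp against 56.2 at 100 bp and above. At the edge of the position rule, the peaks just outside 1000 bp of a TSS lay at 1001, 1004 and 1010 bp and had scores of 75.1, 52.7 and 56.2. Those just inside lay at 987, 990 and 994 bp with scores of 59.4, 59.0 and 80.8.

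Only 14 of the peaks inside genes reached a score of 100. The top score, 141, was that of a 53 bp call in intron 13 of Dlg2, which had 0% unique stretches of 50 bp. Among peaks with at least 50% unique stretches, the highest scores were 125 in intron 4 of A830018L16Rik, 112 in intron 5 of Nsun3, which codes for an RNA methyltransferase of mitochondria, and 109 in both intron 1 of Slc44a5 and a coding exon of Mprip, which codes for an actin-binding partner of myosin phosphatase. The A830018L16Rik, Slc44a5 and Mprip peaks were 50, 54 and 53 bp wide. The first of these and the wider Nsun3 peak are printed to show what the strongest calls look like. In the A830018L16Rik peak 66.0% of the bases were marked as repeat in the genome, and in the Nsun3 peak 13.8%.
A830018L16Rik, intron 4, chr1:11546023-11546072: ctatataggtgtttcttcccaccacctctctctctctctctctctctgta
Nsun3, intron 5, chr16:62758420-62758586: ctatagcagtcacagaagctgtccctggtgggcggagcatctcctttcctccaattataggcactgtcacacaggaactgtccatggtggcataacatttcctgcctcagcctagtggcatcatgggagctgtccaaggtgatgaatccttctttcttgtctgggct

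Most of the peaks lay in introns, in the proportion that introns take of gene interiors. By the centre, 1369 of the 1489 (91.9%, 95% Wilson interval 90.4% to 93.2%) were intronic, and introns made up 92.0% of the gene bases outside 1000 bp of a TSS. UTRs held 46 peaks (3.09%) against 3.22% of the bases, coding exons 30 (2.01%) against 2.67%, and noncoding exons 44 (2.96%, interval 2.21% to 3.94%) against 2.15%. The intervals cover counting error only. The distance to the nearest TSS had a median of 13.5 kb and quartiles of 5.49 and 29.0 kb, and it reached 698 kb. Within 5 kb of a TSS lay 344 peaks (23.1%), and 194 (13%) were more than 50 kb away.

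Along the gene the peaks leaned toward the start. Of 1240 peaks in an intron of a protein-coding host transcript, 414 (33.4%, Wilson interval 30.8% to 36.1%) were in its first intron, which on average held 28.1% of the intron bases of these transcripts outside 1000 bp of a TSS. The second intron held 194 (15.6%), against 15.6% of the bases. Over the 1297 peaks with a protein-coding host, the first of 4 equal parts of the gene held 26.4% (interval 24.0% to 28.8%) against 22.9% of the eligible bases. The last part held 22.7% (20.5% to 25.0%) against 26%.

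The sequence under the peaks had a higher GC content and fewer repeats than the gene interiors around them. Mean GC content was 49.8% ± 6.79 (SD over 1489 peaks), and that of all gene bases outside 1000 bp of a TSS was 42.5%. Repeats took 17.8% of the peak bases and 28.7% of the gene bases, and 730 peaks (49.0%) held no repeat base. In 1416 peaks (95.1%) each 50 bp stretch occurred at a single place in the genome, and this was so for 88.9% of the peaks between genes. In 29 peaks fewer than 50% of the stretches were unique. Density was 1.30 peaks per Mb of gene interior. It was lowest on the X chromosome, where 15 peaks gave 0.312 per Mb, and highest on chromosome 15 at 2.01 per Mb among the chromosomes with a peak.

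The paper had already reported AP-1 and CTCF motifs in the acute peak list, of which these peaks are a part. The counts of both given below are thus not independent of that result. The AP-1 sequence was found in 189 of the 1489 peaks inside genes (12.7%, Wilson interval 11.1% to 14.5%). Of all windows of the same widths centred in gene interiors, 2.03% held it, so that the share in peaks was 6.25 times as large. The share depended on the middle base. TGACTCA and TGAGTCA are the same site read on opposite strands, while the pair TGAATCA and TGATTCA, searched after the first result was seen, occurred in 39 peaks (2.62%) and in 1.75% of windows, a ratio of 1.5. The cyclic AMP response element TGACGTCA, which is longer by 1 base, occurred in 1 peak (0.0672%) and in 0.0692% of windows. Of the 189 peaks, 11 held the AP-1 sequence more than once. The longer BACH2 form, GCTGACTCA or GCTGAGTCA, lay in 40 peaks (2.69%) against 0.264% of windows, 10.2 times as often, and each of these is also an AP-1 match.

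The AP-1 matches in peaks also differed from other AP-1 matches inside genes in the bases next to them. Read as TGACTCA on the strand that has it, 200 matches lay in the peaks. The base before the match was T in 12 of them (6.0%, Wilson interval 3.47% to 10.2%), as against 18.6% of 196573 matches in gene interiors. The base after it was A in 14 (7.0%, interval 4.22% to 11.4%), as against 22.6%. A purine before together with a pyrimidine after was found in 81 (40.5%, interval 33.9% to 47.4%) and in 22.0% of all matches inside genes. The flanking bases were not among the planned comparisons, and T before and A after are named as the rarest on their sides in peaks. The higher GC content of the peaks was not allowed for in these shares.

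The CTCF consensus was rarer but stood out more from its background. It occurred in 38 peaks (2.55%, Wilson interval 1.86% to 3.48%) and in 0.0644% of windows, a ratio of 39.6. With every ambiguous base of the consensus left free, as GCCNNCTNNTGG, it occurred in 85 peaks (5.71%) and 0.726% of windows, a ratio of 7.86. With 4 of the 38 peaks left out, whose sites are not reported here, the forms seen most often were GCCCTCTAGTGG, in 7 peaks, and GCCCTCTGCTGG, in 6. The peaks with a CTCF match had a median width of 126 bp and a median score of 59.0, those with an AP-1 match 146 bp and 58.2, and those with neither 116 bp and 56.8.

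Both sequences lay close to the centres of the peaks. The median distance from the centre of the peak to the middle of the nearest match was 28 bp for AP-1 and 16.5 bp for CTCF, and 46.6% of the AP-1 peaks and 68.4% of the CTCF peaks had it within 25 bp. Only peaks with a match inside enter here, so their width, a median of 146 and 126 bp, bounds the distance. The distance expected from width alone was not computed. Counted over all 1489 regions, AP-1 matches reached 1.18 per kb in the 50 bp before the centre and 1.09 per kb in the 50 bp after it. The level in all gene interiors was 0.171 per kb, and from 200 to 250 bp after the centre the count was 0.215 per kb. CTCF matches reached 0.282 per kb in the 50 bp after the centre against 0.00559 per kb.

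**Figure D1:**
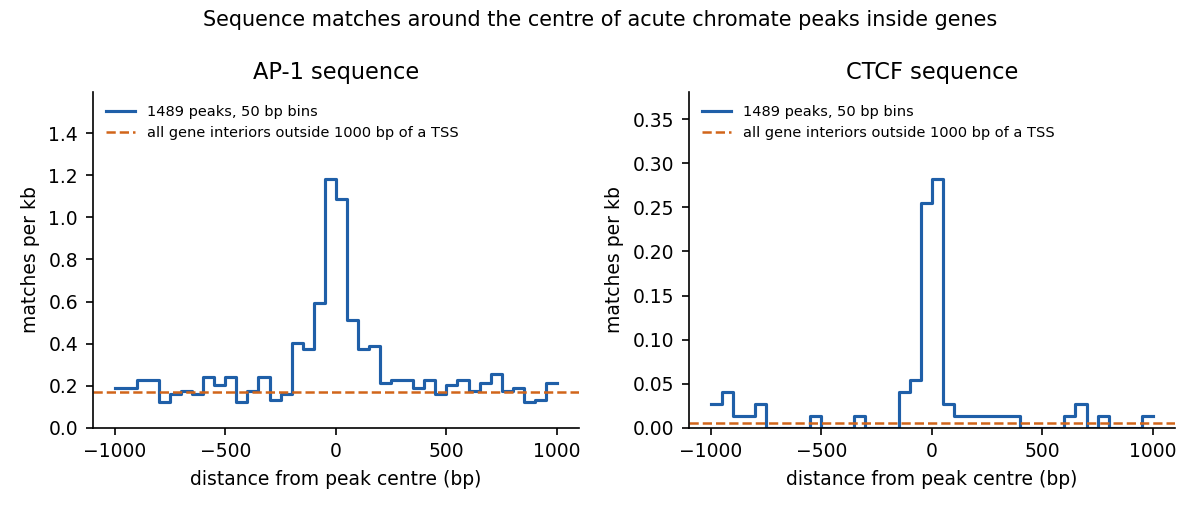
Matches of the AP-1 sequence (left) and the CTCF consensus (right) per kb, in 50 bp bins by distance in bp from the centre of the 1489 peaks inside genes. The dashed line is the density in all gene interiors outside 1000 bp of a TSS, 0.171 per kb for AP-1 and 0.00559 per kb for CTCF, and both sequences rise above it in the bins around the centre.

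The other sequences searched were less frequent relative to their background or did not stand out. The antioxidant response element TGACNNNGC, bound by NRF2, lay in 103 peaks (6.92%) against 3.52% of windows. The BACH2 form GCTGAGTCA, read on the other strand, also fits this pattern, so peaks with that form are counted under both. How many of the 103 peaks these are was not counted, and the excess is not independent of the AP-1 result. The SP/KLF sequence GGGCGGG lay in 29 (1.95%) against 0.597%, the E-box CACGTG in 45 (3.02%) against 1.37%, the NF-kB form GGGNNTTCC in 38 (2.55%) against 1.21% and the ETS form CCGGAAG in 11 (0.739%) against 0.366%. For the sequences of liver factors the window share fell inside the interval of the peaks. FOXA (TGTTTAC) lay in 2.08% of peaks and 1.88% of windows, C/EBP (TTGCNNAA) in 5.64% and 5.57%, and HNF4 (CAAAGTCCA) in 0.201% and 0.161%. The same was so for AGATAAG, the sequence of GATA factors, at 1.88% and 1.79%, for RUNX (TGTGGTT), at 3.69% and 3.01%, for the metal response element (TGCACNC or TGCGCNC), at 6.98% and 6.0%, and for the xenobiotic response element (TTGCGTG), at 0.336% and 0.265%. TEAD (GGAATG) lay in 8.26% of peaks (interval 6.97% to 9.77%) and 6.72% of windows. All were searched on both strands, and a match is a string of letters, not a bound site.

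**Figure D2:**
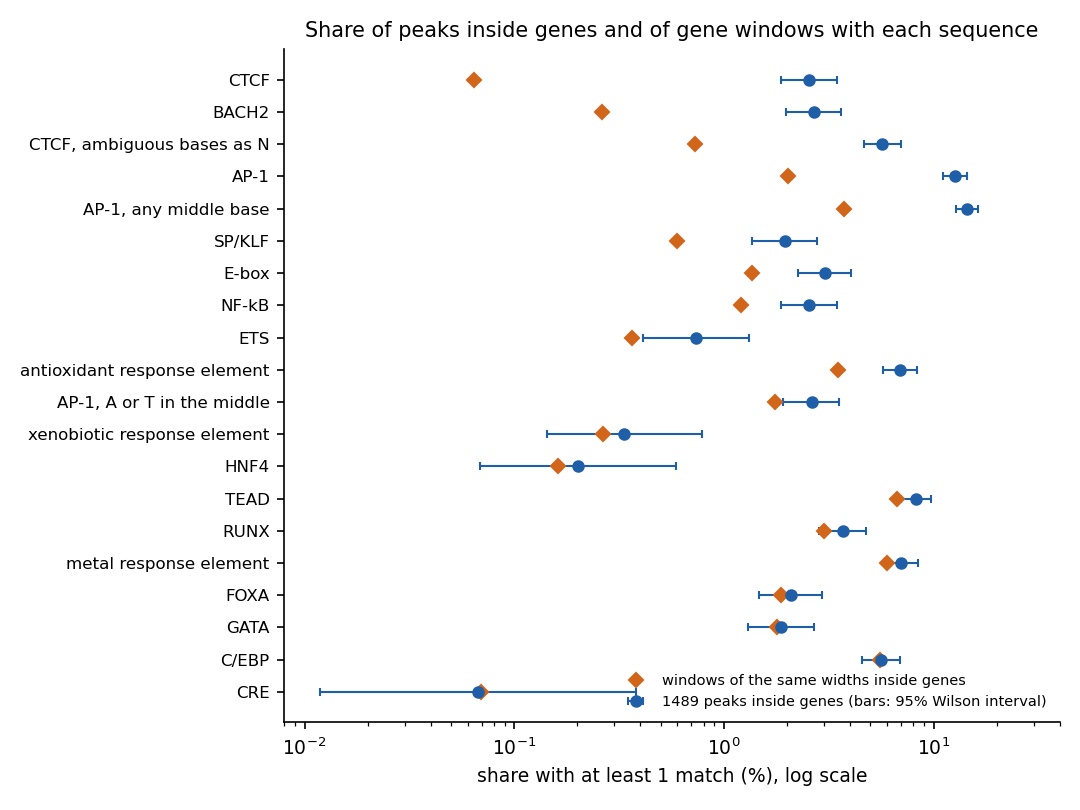
Share of the 1489 peaks inside genes (circles, with 95% Wilson intervals) and of all gene windows of the same widths (diamonds) that hold each of 20 sequence patterns, on a log scale in percent, ordered by the ratio of the shares. Both CTCF patterns, BACH2 and AP-1 lie farthest from their windows, while FOXA, GATA, C/EBP and CRE lie on theirs.

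Since the peaks had a higher GC content than gene interiors, the shares were also compared in windows of 118 bp, the median width, within classes of GC content, a comparison added after the first results were seen. AP-1 was more frequent in peaks in each of the 5 classes, from 5.70% against 1.54% below 40% GC to 14.7% against 2.15% at 40 to 45% GC. Weighted to the GC classes of the peaks, the windows held AP-1 in 2.04% and CTCF in 0.0999%. The central 118 bp of the peaks held them in 11.4% and 2.75%, which gave ratios of 5.60 and 27.6. For SP/KLF the ratio fell from 3.13 to 1.56 with this weighting, and for the pair TGAATCA and TGATTCA it rose from 1.57 to 2.07. Among windows with no repeat base, AP-1 lay in 15.4% of 753 peaks and 2.29% of gene windows.

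**Figure D3:**
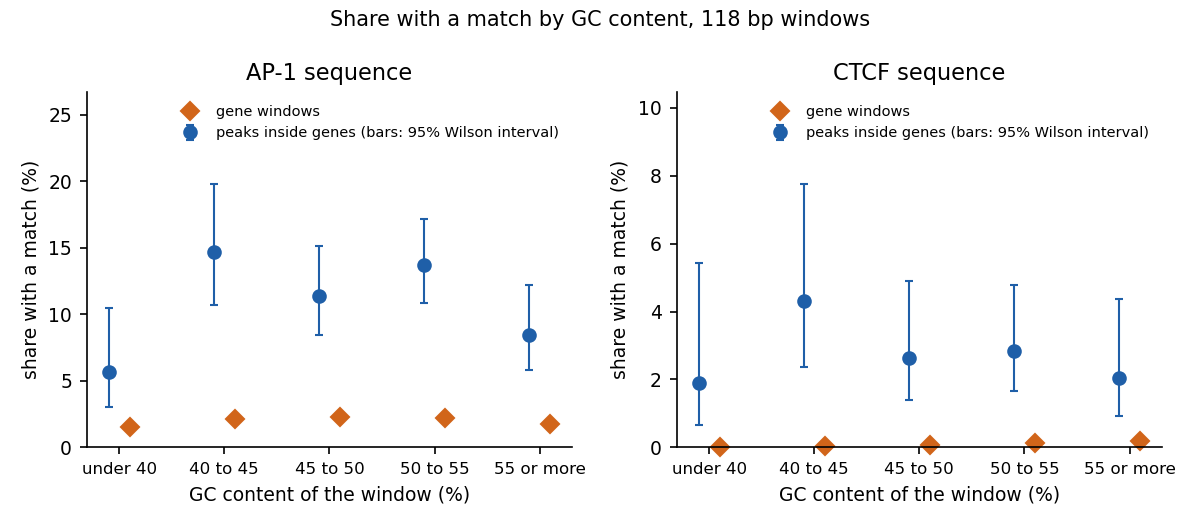
Share of 118 bp windows with an AP-1 match (left) or a CTCF match (right), in percent, for the centres of the peaks inside genes (circles, with 95% Wilson intervals) and for all gene windows (diamonds), in 5 classes of GC content. In each class the peaks lie above the windows, and for AP-1 below 40% GC the difference is smallest, at 5.70% against 1.54%.

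By share of peaks, those inside genes less often held the SP/KLF, ETS and RUNX sequences than those near a TSS. For AP-1 and CTCF no difference in share from either other class was detectable. SP/KLF was found in 1.95% of them and in 10% of the peaks near a TSS, a difference of −8.05 percentage points (95% Newcombe interval −12.1 to −4.99). ETS differed by −4.43 points (−7.64 to −2.34) and RUNX by −3.20 (−6.82 to −0.581). Against the peaks between genes the differences were 0.918 points (−0.0434 to 1.86) for SP/KLF, 0.138 (−0.574 to 0.795) for ETS and 0.521 (−0.923 to 1.91) for RUNX. AP-1 was found in 12.7% inside genes, 10.3% near a TSS and 11.6% between genes, with differences of 2.35 points (−1.99 to 5.84) and 1.12 points (−1.42 to 3.59). For CTCF the differences were 1.17 points (−1.05 to 2.43) and 0.322 points (−0.905 to 1.49). These intervals cover counting error only and hold for 1 library pair. Backgrounds differed between the classes: windows near a TSS held SP/KLF in 4.4% and ETS in 1.36%, gene windows in 0.597% and 0.366%. As a ratio of peak to window share, SP/KLF was higher inside genes (3.26) than near a TSS (2.27), while ETS and RUNX stayed lower. The ratios inside genes and near a TSS were 6.25 and 4.33 for AP-1, and 39.6 and 10.8 for CTCF. Between genes they were 6.61 and 49.4. Differences between these ratios were not tested.

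Few acute peaks, inside genes or elsewhere, overlapped a peak called after long-term treatment against its own control. A region open in both of those libraries would not be on the long-term list. Only 2 of the 1489 shared a base with a peak of the 0.5 µM list, and of all 2945 acute peaks 11 did. One, on chr12:100353962-100354222 in a noncoding exon of Ttc7b, had a score of 71.3 and lay in sequence that was unique throughout, and the long-term peak there ran from 100353987 to 100354582 with a score of 64.3. The other lay in an intron of 2700054A10Rik, 1690 bp from the nearest TSS, and 48.1% of its 50 bp stretches were unique.

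The 1489 peaks lay in 1435 host genes, of which 1303 held 1 peak, 112 held 2 and 20 held 3 or more, and 108 peaks lay in more than 1 gene at once. The hosts were long: their median length was 88.2 kb for the 1196 that were in the RNA count table, against 15 kb for genes of the table without a peak. Peaks were denser in genes with RNA. Genes with too few counts to be tested held 0.811 peaks per Mb of gene span, and tested genes held 1.44, 1.51 and 2.08 per Mb in 3 groups of equal size from low to high control level (normalized CPM per kb of exon). Median gene length in these 3 groups was 24.5, 25.7 and 15.9 kb. Tested genes also held more than untested genes in the same length class. Over 100 kb, tested genes held 1.46 and untested genes 0.693 peaks per Mb, and below 20 kb they held 1.74 and 1.18. Lengths differed within a class, with medians of 156 and 206 kb over 100 kb and of 8.58 and 3.57 kb below 20 kb. The span also counts the 1000 bp around each TSS, where no peak of this set can lie. That stretch takes a larger share of short genes.

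The RNA-seq libraries summed to 32319676 to 37696116 counts, and their control pair was more alike than the treated pair: a difference above 2-fold was found in 83 tested genes within the control pair and in 1404 within the treated pair. Nothing says that the libraries came from separate cultures, so that p-values measure the spread between these libraries, which may be technical. Markers of the line were present: Afp, the fetal serum protein of hepatoma cells, was at 149 and 151 CPM (counts scaled to normalized library size) in the controls, and Krt8 and Krt18 were at 943 to 1095. Of the other hepatocyte markers, Trf was at 1094 and 1111 CPM in the controls, while Hnf4a had 8 to 15 counts and Apoa1 at most 9. Alb rose from 905 and 948 to 3667 and 3550 CPM (adjusted p = 0.0317 in edgeR's quasi-likelihood test), and the summed level of the 10 markers was 4224 to 4361 CPM in controls and 7452 to 8731 in treated cells. Of the leukocyte markers, Ptprc and Cd3e had at most 3 counts, and Cd68 was at 7.77 and 8.29 CPM in controls and 5.08 and 22.1 in treated cells. Of the endothelial markers, Cdh5 had 0 counts in each library and Kdr at most 8, while Pecam1 went from 17 and 19 to 60 and 65 counts (log2 fold change 2.03, adjusted p = 0.0438). The 4 fibroblast markers summed to 655 and 665 CPM in controls and 1207 and 1373 in treated cells. Most of that rise was in Dcn, at 436 and 443 against 959 and 998 CPM (adjusted p = 0.0362), while the log2 fold changes of Col1a1, Col3a1 and Pdgfra were 0.54, −0.01 and −0.47 and did not pass the test. The part of these levels in the results below was not tested, and in bulk RNA fewer cells of a type and less RNA per cell cannot be told apart.

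RNA was not used to choose the peaks, so the RNA of host genes can be tested. Of 1435 hosts, 879 had enough counts, and 67 of them (7.62%) were called by edgeR's quasi-likelihood test at an adjusted p of 0.05, beside 4.63% of all 13619 tested genes. Higher in treated cells were 23 hosts (2.62%, background 1.78%), and lower were 44 (5.01%, background 2.85%). The median log2 fold change of the hosts was −0.16, and 60.5% of them were below 0. Over all tested genes the median was −0.0047 and 50.4% were below 0. The counts move with single libraries: without treated replicate 1 or 2, edgeR called 732 and 649 hosts, beside 10995 and 9333 genes in all, and without control replicate 1 or 2 it called 28 and 28, beside 294 and 287. DESeq2 called 175 hosts, beside 2073 genes in all. The median was −0.25 without treated replicate 1 and −0.09 without treated replicate 2.

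Gene length went with both the number of peaks and the direction of the RNA. Genes over 100 kb were lower in treated cells whether or not they held a peak: the median log2 fold change was −0.39 over 372 hosts and −0.30 over 1132 genes without a peak, and 74.5% and 70.4% were below 0. Of these, 10.2% and 7.07% were called. Below 20 kb the medians were 0.13 over 100 hosts and 0.08 over 6320 other genes, with 4.0% and 3.94% called, and from 20 to 50 kb they were −0.00019 and 0.0034, with 7.50% and 4.82% called. From 50 to 100 kb they were −0.11 and −0.10, with 4.83% and 3.84% called. The difference between hosts and other genes in the same length class was not tested.

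**Figure D4:**
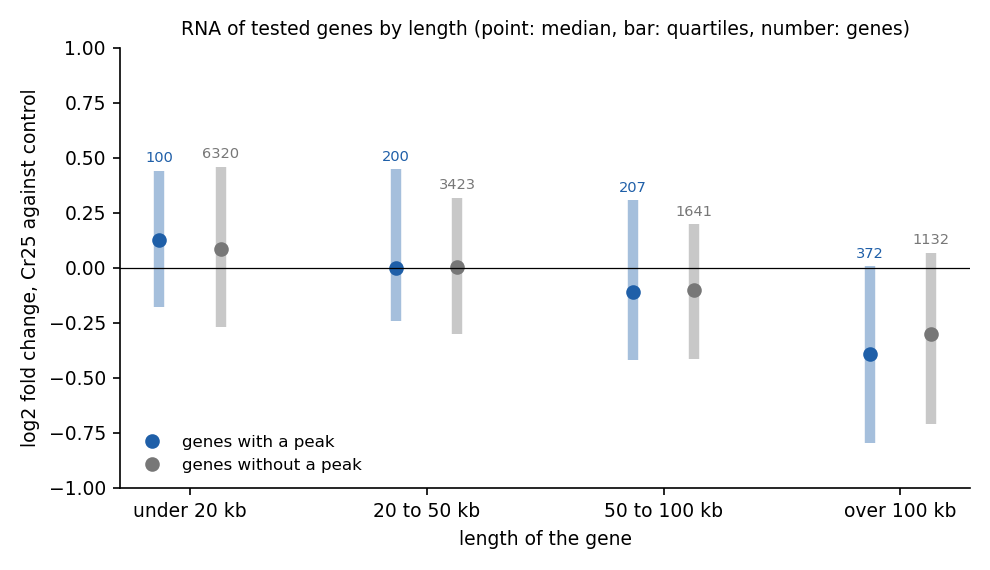
Log2 fold change of RNA in chromate-treated against control cells, for tested genes that hold a peak (blue) and those that do not (grey), in 4 classes of gene length. Points are medians, bars run between the quartiles and numbers are genes. The medians of both kinds of gene fall with length, to −0.39 and −0.30 over 100 kb.

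The hosts of AP-1 peaks did not stand apart from the other hosts. Of 130 tested hosts with an AP-1 peak, 10 (7.69%) were called, 3 higher and 7 lower, and their median log2 fold change was −0.21. Of 749 hosts without one, 57 (7.61%) were called, with a median of −0.15. Of 23 tested hosts with a CTCF peak, 1 (4.35%) was called, and the median was 0.10. Hosts with 2 peaks had a median of −0.48 and 8 of 78 (10.3%) called, beside 7.62% of all tested hosts and 4.63% of all tested genes. Of the 15 tested hosts with 3 or more peaks edgeR called 0, a group too small to tell from those shares. Of these 15, 4 had an unadjusted p under 0.05 and DESeq2 called 3, beside 4176 and 2073 of all 13619 tested genes. Gene length was not allowed for in these groups.

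Among called hosts whose mean reached 2 log2 CPM and whose treated and control values did not overlap, Tnr rose most. This gene codes for tenascin-R, a matrix protein best known from the nervous system, and it lies on chromosome 1 from 159523729 to 159931729. It was at 0.403 and 0.281 CPM in the controls and at 8.99 and 7.15 CPM in treated cells (log2 fold change 4.55, SE 0.31, adjusted p = 0.0282 in edgeR's quasi-likelihood test). The treated libraries lay far above the controls, which had 14 and 11 counts. Its 2 peaks, on chr1:159690607-159690719 and chr1:159726301-159726399, lay in the first intron of 1 of its transcripts, the former also in a UTR exon of another, and held neither sequence.

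Genes of the extracellular matrix and of cell adhesion were among the other rises. Col18a1, which codes for a basement membrane collagen, went from 9.75 and 8.39 to 35.7 and 40.6 CPM (log2 fold change 2.07, SE 0.16, adjusted p = 0.0282), and both of its peaks were in intron 2. Lamb3, the beta chain of a laminin of epithelia, went from 5.15 and 4.27 to 19.3 and 17.3 CPM and had a peak in intron 8. Pgm5, a relative of phosphoglucomutase found at adhesion junctions, went from 1.32 and 1.79 to 8.01 and 9.81 CPM. In each of these genes both treated libraries lay above both controls.

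The other 6 rises were in genes of varied function. Ppp1r3c, which brings protein phosphatase 1 to glycogen, went from 2.82 and 3.56 to 21.3 and 13.2 CPM, and its peak was in its single intron, 1736 bp from the TSS. Hpn, a membrane serine protease of liver cells, went from 32.6 and 34.5 to 97.6 and 126 CPM, with a peak in intron 3. Sord, the sorbitol dehydrogenase of the polyol pathway, went from 179 and 179 to 489 and 387 CPM (log2 fold change 1.29, SE 0.16, adjusted p = 0.0381), with the AP-1 peak shown above in intron 1. Pde4b, a phosphodiesterase of cyclic AMP, had a log2 fold change of 1.45, Ss18l1, a coactivator found in neuronal BAF complexes, 1.77, and Serinc4, of the serine incorporator family, 1.2. All of these treated values lay above both controls.

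The largest fall was that of Tmtc2, which codes for a membrane protein of the endoplasmic reticulum and lies on chromosome 10 from 105187663 to 105574479. It was at 11.2 and 13.2 CPM in controls and at 1.45 and 1.04 CPM in treated cells (log2 fold change −3.28, SE 0.26, adjusted p = 0.0282 in edgeR's quasi-likelihood test). Its 68 bp peak lay in intron 1, on chr10:105526834-105526901, with a score of 78.6. Runx1, a transcription factor of blood and epithelial cells, went from 9.69 and 10 to 1.21 and 1.62 CPM, with a peak in intron 2. Both genes were lower in each treated library than in either control.

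Genes that act on the cell's shape and its contacts were among the falls. Fmn1 and Diaph3 code for formins, which assemble actin filaments. Fmn1 went from 11.9 and 11.8 to 3.4 and 3.11 CPM, and Diaph3 from 73.5 and 71.9 to 22.6 and 18.4 CPM. Eml1, which binds microtubules, went from 35.0 and 35.6 to 9.64 and 5.63 CPM (log2 fold change −2.20, SE 0.29, adjusted p = 0.0397), and Tenm4, an adhesion protein of the teneurin family, from 12.9 and 13.4 to 1.27 and 2.52 CPM. Nrp2, a coreceptor of semaphorins and VEGF, had the highest level of these genes, and went from 407 and 383 to 117 and 105 CPM.

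The remaining falls by this rule were Itprip, which binds the inositol trisphosphate receptor, Zdhhc14, a palmitoyltransferase, and Bche, the plasma cholinesterase made by the liver. Their log2 fold changes were −2.15, −2.06 and −2.02. All 20 genes kept their direction in each alternative that was run. Sord, Ss18l1, Serinc4, Fmn1 and Itprip lost the call without control replicate 1 (adjusted p of Sord = 0.190), and Sord, Ss18l1, Serinc4, Fmn1, Lamb3 and Pde4b without control replicate 2 (adjusted p of Sord = 0.189). Without normalization beyond library size Sord, Ppp1r3c and Eml1 lost it (adjusted p = 0.0643, 0.0604 and 0.0588). Of the 20 genes in both directions, other annotated genes overlap 13, and without knowing whether the counting used strand, reads of such genes cannot be told apart. No other gene overlaps Ppp1r3c, Col18a1, Ss18l1, Hpn, Sord, Itprip and Bche.

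**Figure D5:**
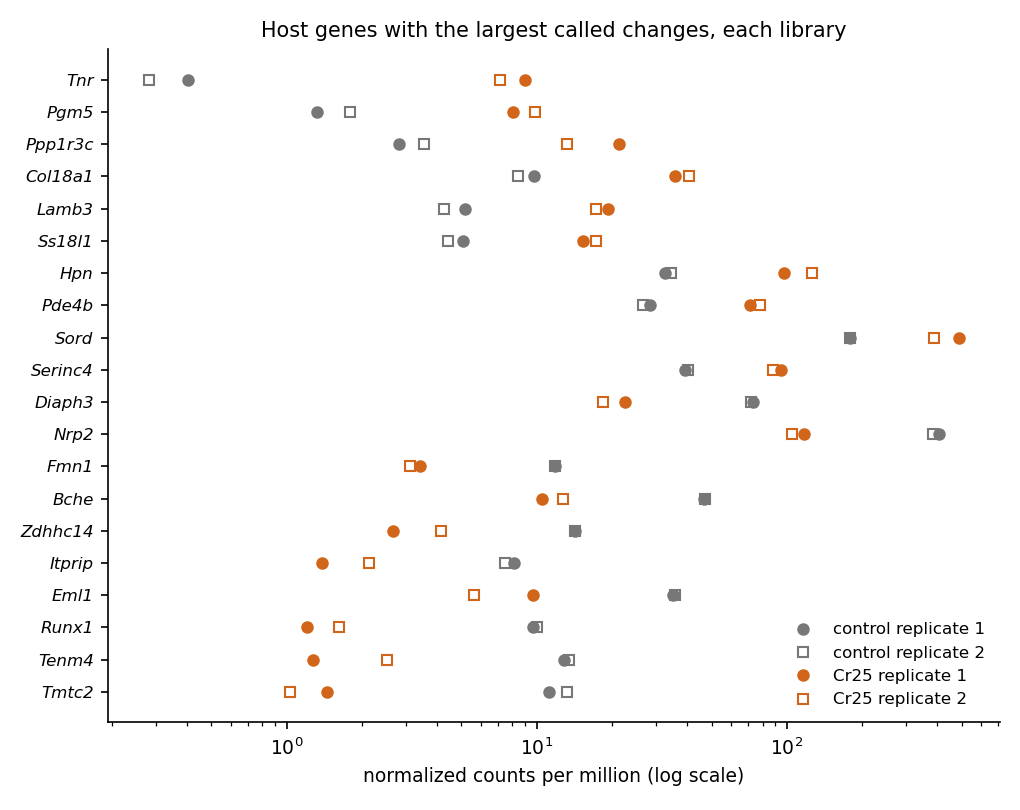
Normalized CPM in each RNA library, on a log scale, for the 10 largest rises and 10 largest falls among called host genes. Grey marks are controls and orange marks treated cells, with filled circles for replicate 1 and open squares for replicate 2. In each gene the treated and control marks do not overlap, which the rule for choosing these genes required.

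The other hosts of AP-1 peaks that were called are the genes shown above with their sequences, and Slc6a6, Gramd3 and Cacna2d1. Slc6a6, the taurine transporter, had the AP-1 peak with the highest score in this group, 107, in intron 1 on chr6:91686647-91686853, and went from 323 and 319 to 179 and 165 CPM (log2 fold change −0.90, SE 0.12, adjusted p = 0.0391 in edgeR's quasi-likelihood test). Sox5, a transcription factor, went from 6.99 and 7.49 to 1.86 and 2.42 CPM, and Magi1, a scaffold of cell junctions, from 34.9 and 36.1 to 14.3 and 14.4 CPM. Oplah, the 5-oxoprolinase of glutathione turnover, rose from 1.12 and 1.28 to 3.4 and 4.28 CPM (log2 fold change 1.67, SE 0.26, adjusted p = 0.0478).

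The genes with most peaks were Arhgap26, Ctnnd2 and Sntb1, with 5 each, all in introns. Arhgap26 had 3 peaks with the AP-1 sequence and scores of 52.2 to 95.7. Its RNA was at 2.65 and 2.07 CPM in controls and at 2.60 and 2.07 CPM in treated cells, so the groups overlapped (log2 fold change −0.01, SE 0.27, adjusted p = 0.984). Sntb1, a syntrophin of the dystrophin complex, had 2 AP-1 peaks, on chr15:55695545-55695657 and chr15:55794931-55795145, and its RNA was at 15.7 and 15.1 against 16.3 and 5.42 CPM (log2 fold change −0.50, SE 0.54, adjusted p = 0.56). Ctnnd2, the neural delta-catenin, was at 2.24 and 2.20 against 0.916 and 1.55 CPM (adjusted p = 0.183). Other genes had 4 peaks, among them Lrmda, whose RNA did not pass the test (adjusted p = 0.198), and Macrod2, a hydrolase of ADP-ribose, whose gene of 1998 kb had at most 1 count in any library. Its peaks were thus called in a gene with next to no RNA in these cells.

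Of 22940 annotated genes in the count table, 5.21% held a peak, and among lists of genes the share varied. The lists were chosen with earlier results of these data known, and long genes hold more peaks. Of 37 chromatin remodelers and modifiers, 8 (21.6%) were hosts. Of 7 tested, 1 was called, beside 4.63% of all tested genes. It was Arid1b, a subunit of the BAF remodeling complex, at 192 and 185 against 72.0 and 47.3 CPM (log2 fold change −1.66, SE 0.23, adjusted p = 0.0419 in edgeR's quasi-likelihood test). Its peak, 194 bp wide, lay on chr17:5001946-5002139. Its sister subunit Arid1a, with an AP-1 peak in intron 12, was at 73.9 and 69.1 against 99.5 and 79.4 CPM (adjusted p = 0.226). Smarcc1 and Pbrm1, of the same family of complexes, had log2 fold changes of −0.52 and −0.47 and did not pass the test (adjusted p = 0.188 and 0.150).

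Of 38 receptor kinases and partners, 6 (15.8%) were hosts. EdgeR called 0 of the 5 tested, beside 4.63% of all tested genes. Of these 5, 3 had an unadjusted p under 0.05 and 2 were called by DESeq2. Of all 13619 tested genes, 4176 had an unadjusted p under 0.05 and DESeq2 called 2073. Groups this small, here and in the next lists, cannot be told from those shares. Met, the receptor of hepatocyte growth factor, was closest, at 203 and 192 against 120 and 98.3 CPM (log2 fold change −0.86, SE 0.14, adjusted p = 0.0533). In the Hippo, TEAD and TGF-beta list 3 of 25 (12%) were hosts, and edgeR called 0, with 1 at an unadjusted p under 0.05, and DESeq2 called 1. The lowest p was that of Smad7, the inhibitor of TGF-beta signalling, at 53.9 and 50.1 against 118 and 87.3 CPM (adjusted p = 0.0607). The list of neuronal adhesion and synapses held 26 genes, most of them very long. It also took in Macrod2, Fhit and Wwox, hosts with 4, 1 and 2 peaks, which are not genes of that kind. Of the 26 listed, 11 (42.3%) were hosts with 20 gene and peak pairs. Among these hosts only Robo1 and Wwox had enough RNA to be tested. EdgeR called 0 of these 2, with 1 at an unadjusted p under 0.05, and DESeq2 called 1. The lower p was that of Robo1, at 49.2 and 48.2 against 32.6 and 26.9 CPM (adjusted p = 0.0694).

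Beside the 5.21% of all genes, 0 of the 18 genes of the AP-1 family, 0 of 12 of CTCF and cohesin, 0 of 20 liver transcription factors and 0 of 21 p53 targets held a peak in the gene interior, and lists of this size are too short to tell 0 from that share. Of 22 NRF2 targets and glutathione genes, Nqo1 and Abcc1 did, and Nqo1, a quinone reductase that is also on the list of 11 xenobiotic response genes, was at 35.3 and 36.5 against 32.1 and 36.3 CPM (adjusted p = 0.737). The RNA of the factors themselves showed no called gene in edgeR's test. Among 16 tested AP-1 genes the median log2 fold change was 0.53, 0 were called, 6 had an unadjusted p under 0.05 and DESeq2 called 5. Among 12 tested genes of CTCF and cohesin the median was −0.086, 0 were called, 4 had an unadjusted p under 0.05 and DESeq2 called 2. Of all 13619 tested genes edgeR called 631, 4176 had an unadjusted p under 0.05 and DESeq2 called 2073. Whether the 16 and 12 genes differ from those shares was not tested.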

How the data were processed

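Chromatin was measured by FAIRE-seq and RNA by poly-A RNA-seq. The authors aligned FAIRE reads to mm10 with BWA and called peaks with MACS, 1 treated against 1 control library. The deposited peak lists hold a score, 10 times the negative log10 of the p-value, and no read counts. The authors aligned RNA reads with TopHat and deposited raw counts per gene for 4 libraries. The counting tool and its use of strand are not given in the sources used here.

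Peaks were placed by their centre on the RefSeq annotation of GRCm38. The members and gene lists were chosen with earlier results of these data known. AP-1, CTCF and BACH2 are motifs that the paper had named from the acute or the long-term FAIRE peaks. The result of 1 of the lists is not reported here. Sequence patterns were counted on both strands in peaks and in all windows of the same widths inside genes. Wilson and Newcombe intervals (95%) cover counting error only. The pair TGAATCA and TGATTCA and the classes of GC content were added after seeing the data. The bases beside AP-1 matches were not among the planned comparisons either.

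Counts were tested with edgeR 4.0.16 (quasi-likelihood, TMM, filterByExpr, two-sided, Benjamini-Hochberg over 13619 genes, threshold 0.05) in R 4.3.3, with DESeq2 1.42.0 as an alternative, and the code was tested on simulated data. Hosts are genes whose span holds the centre of a peak, matched by gene ID. Named are the 10 largest rises and 10 largest falls among called hosts whose mean reached 2 log2 CPM and whose treated and control values did not overlap, the 5 hosts with most peaks (ties in order of the alphabet), the highest scores in unique sequence, called hosts of AP-1 peaks and hosts in the lists. Dlg2, Oplah and the CTCF sites shown were chosen after their values were seen. Same-numbered libraries did not deviate together (correlation 0.0909), so the numbers were not taken as pairs. Alternatives were other score, width and annotation limits, other letters, no filter, no normalization, DESeq2, a replicate block and leaving out each RNA library.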

Additional observations from a re-analysis of the deposited data

How the results depend on the processing

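With the replicate number as a block edgeR called 251 hosts, 77 higher and 174 lower, beside 2969 genes in all, but the numbers are not known to pair the libraries. DESeq2 called 175 hosts, 55 higher and 120 lower, beside 2073 genes in all. Without normalization beyond library size 13 hosts were higher and the median log2 fold change of hosts was −0.27, while that of all genes moved to −0.11. Leaving out 1 library gave 28 to 732 changed hosts, 7 to 266 higher and 19 to 473 lower, and a median of −0.249 to −0.0928. The same fits called 287 to 10995 genes in all. The 28 came without either control, and the 732 and 649 without treated replicate 1 and 2. The lone library of an arm was then assumed to vary like the other group. A score of at least 60 kept 536 peaks and one of at least 100 kept 14, of which 78.6% were in introns and 7.14% held CTCF. With curated transcripts 95.2% of the peaks were intronic. AP-1 was found in 15.7% of peaks at least 100 bp wide, in 15.6% of the central 200 bp and, with any middle base, in 14.5%, but in 2.62% with A or T in the middle. CTCF with free ambiguous bases was found in 5.71%. No result reversed. The causes were not tested. With 1 FAIRE library per condition and no read counts, depth limits no peak value in a way that can be given here.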
